A study of Homo sapiens with 15 samples.

Results

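The bone lineage genes described here are 8 genes of osteoblast differentiation and bone matrix: *SPP1*, *RUNX2*, *ALPL*, *IBSP*, *SP7*, *BGLAP*, *SPARC* and *TNFRSF11B*. They were taken by name from the deposited count table, where they are 8 of 57820 genes. The rule that takes them uses no measured value, although the list was drawn up with earlier results of these data known. The question here was how their RNA stood when the Ewing sarcoma fusion EWS/FLI was kept, depleted, or replaced by a wildtype or mutant cDNA. The data are RNA-seq counts from A673, an established Ewing sarcoma cell line, in 5 conditions of 3 libraries each, 15 in all. All cells received a retroviral shRNA on day 1, a second retrovirus with an empty vector or a cDNA on day 5, and selection in 2 µg/mL puromycin and 400 µg/mL hygromycin B up to day 16. iLuc cells carried an shRNA against luciferase and the empty vector, and so kept endogenous EWS/FLI (endo-EF). iEF cells carried the shRNA against EWS/FLI and the empty vector. The 3 rescue conditions carried that same shRNA with a cDNA encoding wildtype EWS/FLI (WT-EF), EWS/FLI without the EWS domain (Δ22, the negative control), or EWS/FLI with tyrosine to alanine mutations in the EWS domain (DAF). The cDNAs were introduced by viral transduction, and a single cell line was used throughout. The labels number the libraries of a condition 1 to 3, and the study's methods treat each number as a replicate set of the whole knockdown and rescue. The labels do not say how far the sets were separate cultures, and p-values measure the spread between these libraries.

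*RUNX2* is the transcription factor that commits mesenchymal cells to the osteoblast lineage, and *SP7* (osterix) is the factor required after it. Early osteoblasts then make *ALPL*, the tissue-nonspecific alkaline phosphatase that removes the mineralization inhibitor pyrophosphate, and the matrix proteins *SPARC* (osteonectin) and *SPP1* (osteopontin), whereas *IBSP* (bone sialoprotein) and *BGLAP* (osteocalcin) mark mature, mineralizing osteoblasts. *TNFRSF11B* (osteoprotegerin) is a secreted decoy receptor by which osteoblasts restrain osteoclast formation. EWS/FLI is a transcription factor that activates some genes and represses many others, and Ewing sarcoma arises mostly in bone.

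The promoter sequences of *SPP1*, *RUNX2* and *SPARC* are shown because these were the 3 members that fell with both endo-EF and WT-EF. Each run holds the 250 bases before the RefSeq start site on the gene's own strand in GRCh38.p14. Capitals mark ACCACA, the core of the site that RUNX proteins bind. The windows are chr4:87975464-87975713 (plus strand) for *SPP1*, chr6:45328080-45328329 (plus strand) for the upstream *RUNX2* promoter and chr5:151686916-151687165 (minus strand) for *SPARC*.
SPP1: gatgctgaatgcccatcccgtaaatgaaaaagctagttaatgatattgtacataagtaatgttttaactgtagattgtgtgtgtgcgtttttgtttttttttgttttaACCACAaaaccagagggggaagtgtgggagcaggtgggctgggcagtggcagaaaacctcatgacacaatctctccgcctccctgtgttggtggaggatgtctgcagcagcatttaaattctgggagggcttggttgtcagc
RUNX2: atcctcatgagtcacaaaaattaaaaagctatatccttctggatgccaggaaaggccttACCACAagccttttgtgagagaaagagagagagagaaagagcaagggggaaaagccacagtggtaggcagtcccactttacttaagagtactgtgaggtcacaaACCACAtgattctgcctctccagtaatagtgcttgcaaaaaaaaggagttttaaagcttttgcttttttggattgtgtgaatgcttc
SPARC: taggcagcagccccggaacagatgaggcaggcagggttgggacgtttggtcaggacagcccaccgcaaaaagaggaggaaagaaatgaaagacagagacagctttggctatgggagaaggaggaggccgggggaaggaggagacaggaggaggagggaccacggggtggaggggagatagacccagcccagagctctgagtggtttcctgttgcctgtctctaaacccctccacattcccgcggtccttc
Both strands were searched for the motif ACCACA, whose reverse complement is TGTGGT, and for the motif GGAAGGAA, whose reverse complement is TTCCTTCC and which holds a pair of the GGAA repeats that EWS/FLI binds. Of 35116 RefSeq promoter windows of this length, 11% held ACCACA and 3.06% held GGAAGGAA. *SPP1* held ACCACA once, with its first base at -142 when the base before the start site is -1. The upstream *RUNX2* window held it at -191 and -87, and the *BGLAP* window held it at -163. ACCACA was not found in the windows of *SPARC*, *IBSP* or *ALPL* (3 start sites), nor in that of the second *RUNX2* start site. No window of *SP7* or *TNFRSF11B* was read. GGAAGGAA was in none of the windows read. Single high-affinity ETS sites, which EWS/FLI also binds, were not searched for, so the absence of GGAAGGAA does not cover them. Such a match is a description of the letters and no evidence of binding.

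Longer GGAA repeats were searched for in GRCh37, the build of the counts. The nearest run of at least 4 repeats lay 44993 bases upstream of the start of *SPARC* (4 repeats) and 47989 bases upstream of that of *SPP1* (4 repeats). It lay 62929 bases upstream of *ALPL* (12 repeats) and 71492 bases downstream of the start of *RUNX2* (6 repeats). Thus 2 of the 8 members had a run within 50000 bases and none had one within 5000 bases. Among 26095 tested genes, 33.2% had one within 50000 bases and 3.48% within 5000 bases, and the median distance was 87252 bases.

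Libraries held 28659475 to 41859880 counts, and 28793 genes with a mean of 1 count per library or more were tested. Levels are given in CPM, counts divided by library size after TMM scaling, and changes as log2 fold changes ± standard error (SE). *FLI1*, the gene of the other fusion partner, was the check of the depletion. It was at 49.4 CPM in iLuc and 14.6 CPM in iEF cells (adjusted p = 7.93e-09). Every adjusted p given here comes from the quasi-likelihood test of edgeR, corrected by Benjamini-Hochberg over the tested genes. *FLI1* RNA was at 17.6 CPM in WT-EF cells, 24.3 CPM in DAF cells and 31.2 CPM in Δ22 cells. Against iEF it was called higher with DAF (adjusted p = 0.000335) and Δ22 (0.000446) but not with WT-EF (0.0538), where it was higher in all 3 sets. WT-EF was called lower than DAF (adjusted p = 0.00264), and DAF against Δ22 was not called (0.128). These reads hold endo-EF and cDNA together. The paper places the shRNA target in the 3′ untranslated region, and whether the cDNAs hold that region is not stated there. A cDNA without it would give fewer counts per transcript, so *FLI1* levels of iLuc and rescue cells may not be comparable. What part these amounts had in the differences between constructs was not tested.

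Of the 8 members, 7 passed the filter on low counts. *IBSP* (ENSG00000029559, chromosome 4 of GRCh37 from 88720706 to 88733587) did not, with 1 count in a single DAF library and 0 in the other 14. Its upper limit at this depth is the floor of 3 counts per library. *BGLAP* was at 0 to 5 counts and *SP7* at 0 to 12 counts in every library. The counts of the markers of mature osteoblasts were thus at or near 0 in all 5 conditions. For *BGLAP* they may be too low and cannot show its absence, since it shares exons with a readthrough gene. The name of the list describes the genes and not the state of these cells. Per kilobase of canonical transcript, *SPARC* was the most abundant member in every condition, with 34.7 CPM per kilobase in iLuc and 269.8 in iEF cells. In iEF cells *SPP1* followed at 86.3 CPM per kilobase, and *RUNX2* at 2.16 CPM per kilobase. In iLuc cells the second was *ALPL* at 3.80 CPM per kilobase, with *RUNX2* at 0.356.

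**Figure D1:**
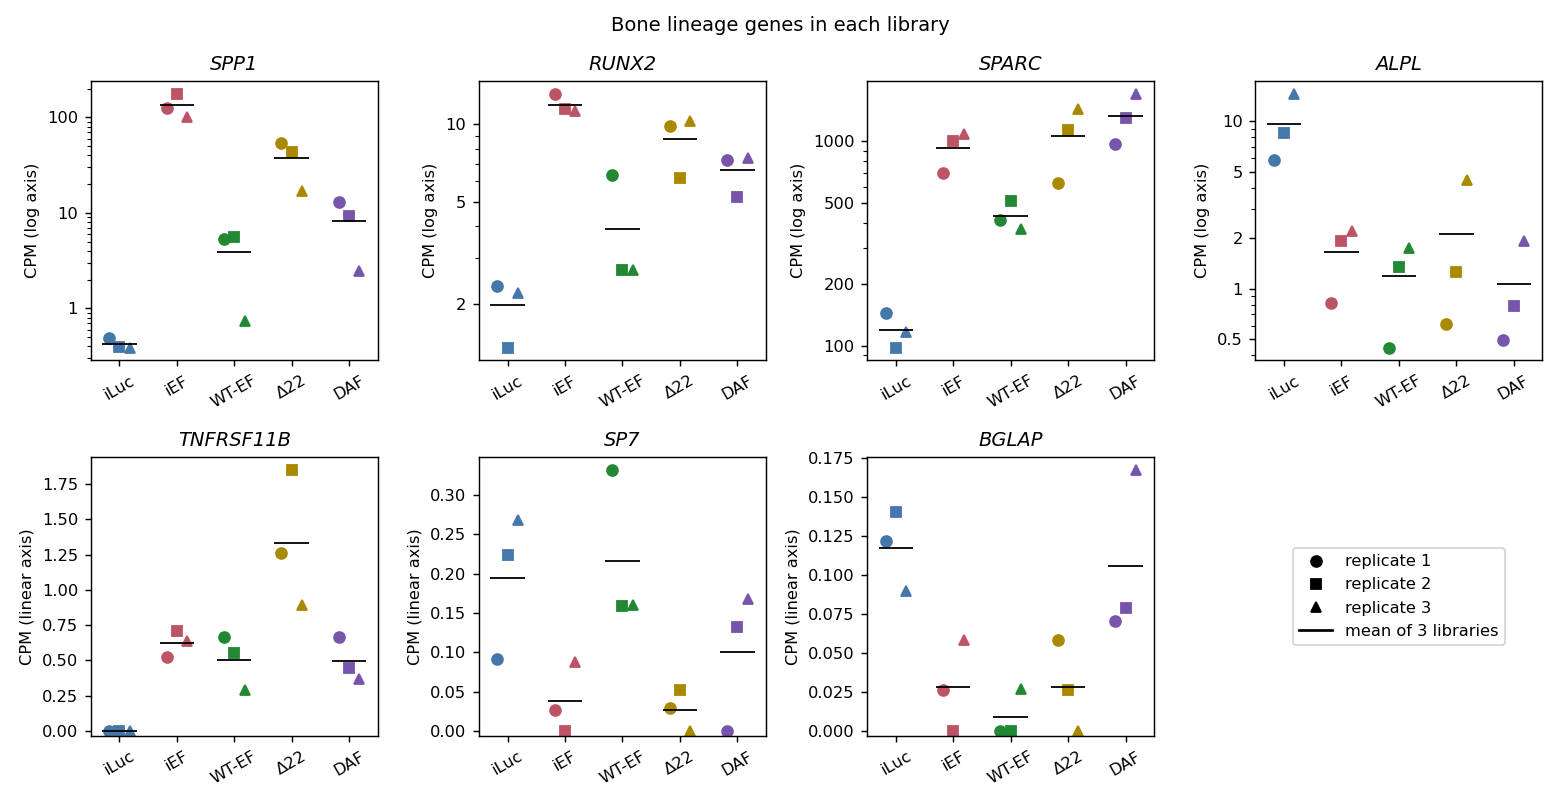
Level of 7 bone lineage genes in CPM in each library, with conditions on the x axis, 1 point for each of 3 libraries (shape gives the replicate number) and a line at the mean. Axes are logarithmic in the upper row and linear in the lower row. SPP1, RUNX2 and SPARC sit lowest in iLuc and ALPL sits highest there, while SP7 and BGLAP stay under 0.4 CPM in every library.

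*SPP1*, *RUNX2*, *SPARC* and *TNFRSF11B* were all lower in cells that kept endo-EF than in depleted cells, and *ALPL* was higher. Among the 7 members tested in iLuc against iEF cells, 1 was called higher and 4 lower at an adjusted p under 0.05. Over all 28793 genes, 19.5% were called higher and 22.1% lower. The median log2 fold change was -2.64 over the members, also with *TNFRSF11B* at its bound, and 0.04 over all genes. These 5 calls held in every alternative analysis that gave a value.

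*SPP1* (ENSG00000118785) lies on chromosome 4 of GRCh37 from 88896819 to 88904684 and encodes osteopontin, a phosphorylated matrix protein that tethers cells through integrins and *CD44*. It was at 0.489, 0.393 and 0.388 CPM in the iLuc libraries and at 126, 177 and 102 CPM in the iEF libraries. Even the lowest iEF library was far above every iLuc library. In counts these are 13 to 16 per iLuc library and 3506 to 5244 per iEF library. The log2 fold change was -8.45 ± 0.47 (SE, adjusted p = 6.03e-09), that is 318-fold lower in iLuc on the means.

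*RUNX2* (ENSG00000124813, chromosome 6 of GRCh37 from 45295894 to 45632086) was at 2.35, 1.35 and 2.21 CPM in iLuc and at 13.2, 11.4 and 11.3 CPM in iEF libraries. The groups were well apart, and the factor was present at a low level in both. *RUNX2* thus had a log2 fold change of -2.64 ± 0.24 (SE, adjusted p = 5.01e-07). *SPARC* (ENSG00000113140, chromosome 5 from 151040657 to 151066536), a collagen-binding glycoprotein of bone matrix, was at 145, 97.6 and 117 CPM in iLuc and at 700.0, 1004 and 1089 CPM in iEF libraries. No library of either group reached the other group. The log2 fold change was -2.90 ± 0.25 (SE, adjusted p = 3.61e-07). Exons of *SPARC* overlap the antisense gene *CLMAT3*, which held 701 counts over all libraries against 387007 for *SPARC*, and the strand setting of the counting is not given in the sources used here.

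*ALPL* (ENSG00000162551, chromosome 1 from 21835890 to 21904903) was higher in iLuc cells, unlike the other members called. It was at 5.87, 8.50 and 14.6 CPM in iLuc and at 0.815, 1.92 and 2.21 CPM in iEF libraries, with no overlap. The difference was a log2 fold change of 2.58 ± 0.29 (SE, adjusted p = 5.06e-06). In each of the 5 conditions the replicate 1 library was the lowest and the replicate 3 library the highest for *ALPL*. *TNFRSF11B* (ENSG00000164761, chromosome 8 from 119935796 to 119964124) had 0 counts in all 3 iLuc libraries and 20, 21 and 22 counts in the iEF libraries. Against the floor of 3 counts per library, it was at least 7.06-fold lower in iLuc (adjusted p = 9.24e-06). In bulk RNA, fewer cells that make a transcript and less of it per cell cannot be told apart, here or in the values that follow.

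*SP7* and *BGLAP*, the factor downstream of *RUNX2* and the late matrix protein, had too few counts for a firm comparison. *SP7* (ENSG00000170374, chromosome 12 from 53720359 to 53739099) had 3, 8 and 9 counts in iLuc and 1, 0 and 3 counts in iEF libraries. The ratio of the summed counts per depth was 5.01 (95% counting interval 1.68 to 20.2), and the adjusted p was 0.0737. *BGLAP* (ENSG00000242252, chromosome 1 from 156211975 to 156213108) had 4, 5 and 3 counts in iLuc and 1, 0 and 2 counts in iEF libraries. Its ratio was 4.01 (95% counting interval 1.08 to 22.1), with an adjusted p of 0.107. Neither change was called, although the *SP7* change passed in 2 of 23 alternatives. Such intervals cover counting error only. *BGLAP* shares exons with the readthrough gene *PMF1-BGLAP* on the same strand, so that reads on it could be dropped or split, and its values are uncertain.

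WT-EF lowered *SPP1*, *RUNX2* and *SPARC* again but did not move *ALPL* or *TNFRSF11B* past the test. Against iEF, 0 members were called higher and 3 lower of 7 in WT-EF cells, beside 12.9% of all genes called higher and 17.0% lower. The median log2 fold change was -1.08 over the members and -0.01 over all genes. Every rescue condition was compared with the same 3 iEF libraries, so these comparisons are not independent of each other. *SPP1* was at 5.29, 5.58 and 0.746 CPM in the WT-EF libraries, all under the lowest iEF library. The third library stood apart from the other two, and without the replicate 3 libraries the log2 fold change was -4.75 in place of -5.41 ± 0.38 (SE, adjusted p = 1.98e-07 with all libraries). *RUNX2* was at 6.34, 2.70 and 2.72 CPM with WT-EF, a log2 fold change of -1.68 ± 0.22 (SE, adjusted p = 4.86e-05). Here replicate 1 was the highest library, and none reached the iEF range. *SPARC* was at 411, 511 and 372 CPM, also without overlap with iEF, and its log2 fold change was -1.08 ± 0.24 (SE, adjusted p = 0.00297). These 3 calls held in every alternative that gave a value.

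*ALPL* was at 0.443, 1.35 and 1.76 CPM with WT-EF, within the range of or below the iEF libraries and not near the iLuc libraries. Its log2 fold change against iEF was -0.53 (95% interval -1.15 to 0.08, adjusted p = 0.236). *TNFRSF11B* had 24, 21 and 11 counts with WT-EF, and its log2 fold change was -0.35 (95% interval -1.02 to 0.33, adjusted p = 0.516). Thus the phosphatase that was higher with endo-EF was not higher with WT-EF, and the decoy receptor that was at 0 with endo-EF was present with WT-EF. *SP7* had 12, 6 and 6 counts with WT-EF, above the iEF libraries in all 3 sets. Its ratio to iEF was 5.49 (95% counting interval 1.89 to 21.8), and its adjusted p of 0.0607 fell under 0.05 in 4 of 23 alternatives, the lowest being 0.0259. *BGLAP* had 0, 0 and 1 counts with WT-EF.

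**Figure D2:**
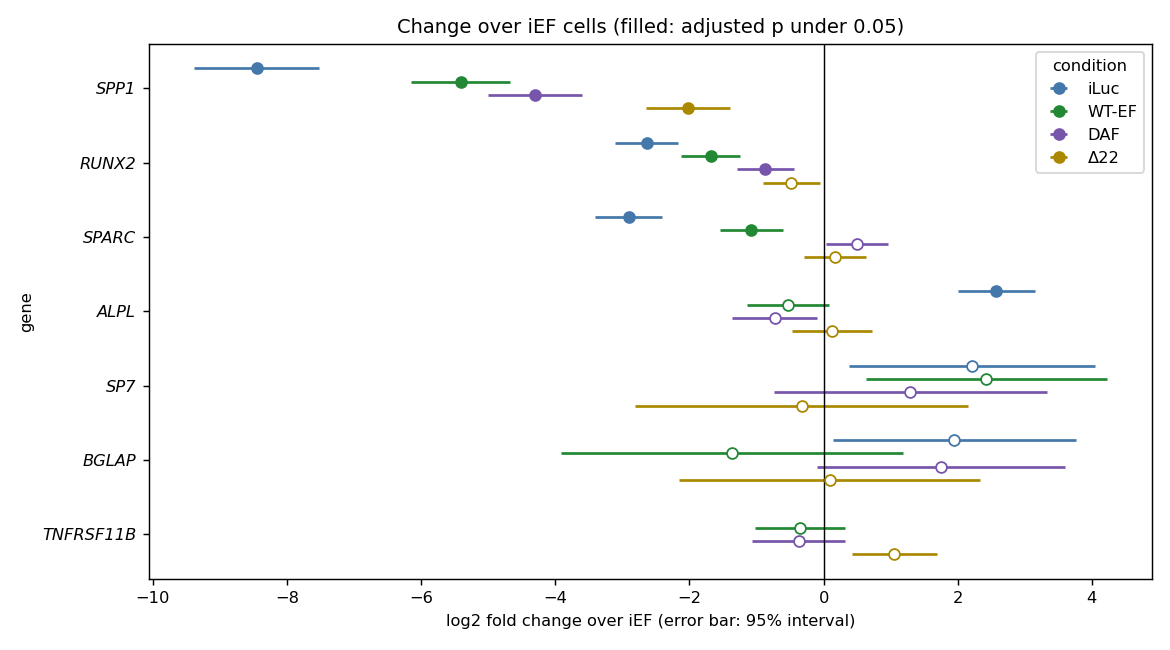
Log2 fold change of each gene over iEF (x axis) for iLuc, WT-EF, DAF and Δ22, with error bars of 95% intervals and filled points where the adjusted p is under 0.05. The intervals come from the normal distribution and are somewhat too narrow. TNFRSF11B in iLuc, where it had 0 counts, is left out since its fitted value is no bound. SPP1 is filled in all 4 conditions and runs from -8.45 in iLuc to -2.02 with Δ22, while ALPL is filled in iLuc alone.

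DAF lowered *SPP1* strongly and *RUNX2* by less, and left *SPARC* at or above the depleted level. In DAF against iEF cells 0 members were called higher and 2 lower of 7, beside 5.00% of all genes higher and 6.19% lower. The median log2 fold change was -0.37 over the members and 0.00 over all genes. *SPP1* was at 12.9, 9.21 and 2.45 CPM with DAF, all well under the iEF libraries. This was a log2 fold change of -4.31 ± 0.36 (SE, adjusted p = 1.06e-05), and the call held in every alternative that gave a value. *RUNX2* was at 7.27, 5.22 and 7.41 CPM, again below every iEF library. *RUNX2* thus had a log2 fold change of -0.87 ± 0.22 (SE, adjusted p = 0.0183). That call was lost without iEF replicate 2 (adjusted p = 0.114), DAF replicate 1 (0.102) or DAF replicate 2 (0.0799), without the replicate 1 libraries of all conditions (0.0803) or the replicate 2 libraries (0.242), and without the replicate block (adjusted p = 0.105).

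*SPARC* was at 969, 1298 and 1709.6 CPM with DAF, higher than the iEF library of the same number in all 3 sets although the groups overlapped. The log2 fold change was 0.50 (95% interval 0.04 to 0.96, adjusted p = 0.214), and it was called with no filter on low counts (adjusted p = 0.000565) and in a fit of only the 6 libraries compared (adjusted p = 0.00124). That interval leaves out 0 because it is somewhat too narrow, and the unadjusted p of the edgeR test was 0.0504. *ALPL* was at 0.492, 0.791 and 1.91 CPM, a log2 fold change of -0.73 (95% interval -1.36 to -0.10, adjusted p = 0.182). The DAF libraries thus showed no return of *ALPL* toward its iLuc level. *TNFRSF11B* had 19, 17 and 11 counts, with a log2 fold change of -0.37 (adjusted p = 0.608). *SP7* had 0, 5 and 5 counts and *BGLAP* 2, 3 and 5 counts, neither of which passed the test.

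With Δ22, which has no EWS domain, *SPP1* was the only member called lower than in iEF cells, while *RUNX2* was below every iEF library without passing the test. Against iEF, 0 members were called higher and 1 lower of 7, beside 0.472% of all genes called higher and 0.830% lower. The median log2 fold change was 0.09 over the members and 0.01 over all genes. *SPP1* was at 53.9, 43.2 and 16.9 CPM with Δ22, below the iEF library of the same number in all 3 sets and without overlap. The fitted log2 fold change was -2.02 ± 0.32 (SE, adjusted p = 0.00823), 3.55-fold lower on the means. The call was lost without Δ22 replicate 2 (adjusted p = 0.0768) or replicate 3 (0.0525), without all replicate 2 libraries (0.278), and without the replicate block (0.177). *RUNX2* was at 9.85, 6.18 and 10.3 CPM, below each iEF library, and its log2 fold change was -0.48 (95% interval -0.90 to -0.06, adjusted p = 0.345). *SPARC* was at 626, 1136 and 1435 CPM, around the iEF libraries on either side, with a log2 fold change of 0.17 (95% interval -0.29 to 0.63, adjusted p = 0.838). *ALPL* was at 0.615, 1.25 and 4.47 CPM, also on either side of iEF, with a log2 fold change of 0.12 (95% interval -0.48 to 0.72, adjusted p = 0.928).

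*TNFRSF11B* was highest with Δ22, at 43, 71 and 25 counts. Every Δ22 library was above every iEF library in CPM, with a mean of 1.33 ± 0.483 CPM against 0.625 ± 0.0923 CPM (SD, n = 3 each). The log2 fold change was 1.06 (95% interval 0.43 to 1.69), with an adjusted p of 0.143 in the edgeR test. *SP7* had 1, 2 and 0 counts and *BGLAP* 2, 1 and 0 counts with Δ22, at or under the floor as in iEF.

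The constructs were then compared with each other. DAF against Δ22 called 0 members higher and 1 lower, beside 0.948% of all genes higher and 0.379% lower. *SPP1* was that member, with a log2 fold change of -2.28 ± 0.33 (SE, adjusted p = 0.00285) and no overlap between the DAF and Δ22 libraries. This call was lost without the replicate 2 libraries (adjusted p = 0.119) and without the replicate block (0.127). *TNFRSF11B* was lower with DAF than with Δ22 in all 3 sets, by a log2 fold change of -1.43 (95% interval -2.08 to -0.77). Its adjusted p of 0.0625 missed the threshold, and 5 alternatives called it, among them the fit without WT-EF replicate 3 (0.0420). *RUNX2* (-0.39, 95% interval -0.82 to 0.04), *ALPL* (-0.85, -1.47 to -0.23) and *SPARC* (0.33, -0.13 to 0.79) were not called. Each of these 3 was called in the fit of the 6 libraries alone, with adjusted p-values of 0.0487, 0.0182 and 0.000148.

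WT-EF against DAF called 0 members higher and 4 lower, beside 12.4% of all genes called higher and 16.1% lower. *SPARC* differed most clearly between them, since every WT-EF library was below every DAF library. WT-EF over DAF was a log2 fold change of -1.58 ± 0.24 (SE, adjusted p = 0.000203), and the call held in every alternative. *SPP1* was lower with WT-EF within each set, while the groups overlapped. WT-EF over DAF was here a log2 fold change of -1.10 ± 0.35 (SE, adjusted p = 0.0272), and the call was lost in DESeq2's Wald test (0.0633) and without the replicate block (0.215). It was also lost without WT-EF replicate 3 (0.0743), DAF replicate 1 (0.165) or DAF replicate 2 (0.0671), and without all replicate 1 (0.113) or replicate 2 libraries (0.0953). *RUNX2* was lower with WT-EF within each set, again with overlap, by a log2 fold change of -0.81 ± 0.22 (SE, adjusted p = 0.0135). The *RUNX2* call was lost without the replicate block (0.0890), without WT-EF replicate 2 (0.0610) or replicate 3 (0.0713), without DAF replicate 3 (0.0633), and without all replicate 2 (0.119) or replicate 3 libraries (0.104). *BGLAP* was the fourth, with 1 count in WT-EF against 10 in DAF, a ratio of 0.0863 (95% counting interval 0.00199 to 0.606, adjusted p = 0.0467), and it was lost in 16 of 22 alternatives. *ALPL* (log2 fold change 0.20, 95% interval -0.44 to 0.84) and *TNFRSF11B* (0.02, 95% interval -0.68 to 0.72) were not called.

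WT-EF against iLuc asked how far the rescue returned the genes to undepleted cells, and it called 4 members higher and 2 lower, beside 10.7% of all genes called higher and 9.03% lower. All 3 members that WT-EF lowered were still above their iLuc level. *SPARC* was 3.60-fold higher on the means, with a log2 fold change of 1.83 ± 0.24 (SE, adjusted p = 0.000145). *SPP1* was 9.14-fold higher, with a log2 fold change of 3.04 ± 0.49 (SE, adjusted p = 0.000593). That call was lost without the replicate 2 libraries (0.0560), and without the replicate 3 libraries the value was 3.69. *RUNX2* had a log2 fold change of 0.96 ± 0.24 (SE, adjusted p = 0.0108), a call lost without WT-EF replicate 1 (0.0664), the replicate 1 libraries (0.206) or the replicate 2 libraries (0.107). *TNFRSF11B* was at least 5.70-fold higher with WT-EF (adjusted p = 0.000123). *ALPL* was 8.16-fold lower with WT-EF than in iLuc, with a log2 fold change of -3.11 ± 0.30 (SE, adjusted p = 1.16e-05). *BGLAP*, at 1 count against 12, was called lower (ratio 0.0761, 95% counting interval 0.00178 to 0.515, adjusted p = 0.0424) but lost that call in 13 of 22 alternatives.

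The same values were expressed as the share of the log2 distance from iEF to iLuc that each construct covered within its own replicate set. For *SPP1* the share was 68.3% ± 18.1 with WT-EF, 53.1% ± 13.6 with DAF and 24.0% ± 8.77 with Δ22 (SD, n = 3 sets). In every set WT-EF covered the most and Δ22 the least. By library, the WT-EF shares were 58.1%, 57.7% and 89.2%, those of DAF 41.7%, 49.4% and 68.2%, and those of Δ22 15.5%, 23.6% and 33.0%. Set 3 had the highest share with each construct, and it also held the highest *FLI1* level with each construct. For *RUNX2*, set 3 had the highest share with WT-EF (87.4%) but the lowest with DAF (25.8%) and Δ22 (5.33%). The part of *FLI1* level in these shares was not tested.

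*RUNX2* followed the same order on average, with 66.0% ± 22.5 for WT-EF, 32.5% ± 5.88 for DAF and 17.1% ± 11.9 for Δ22. *SPARC* did not, since the share was 36.97% ± 9.97 with WT-EF, -17.3% ± 5.44 with DAF and -3.51% ± 9.88 with Δ22. A negative share means that a construct lay on the far side of iEF from iLuc, which DAF did in all 3 sets. *ALPL* had mean shares of -21.4% ± 8.66 with WT-EF, -29.8% ± 25.6 with DAF and -1.58% ± 34.2 with Δ22, so that no construct covered its distance on average.

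**Figure D3:**
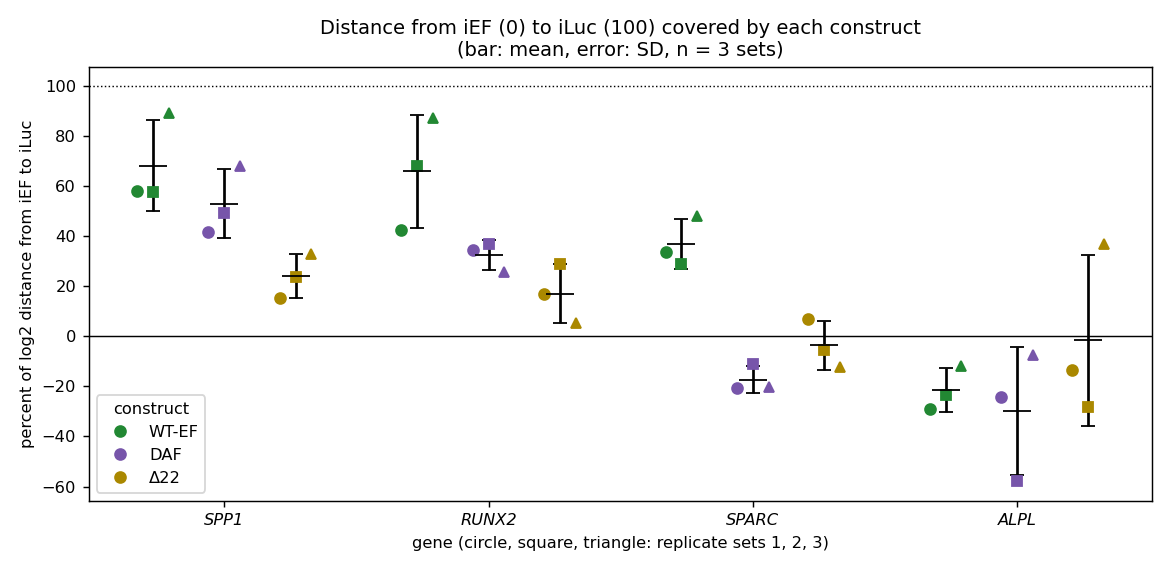
Share of the log2 distance from iEF (0) to iLuc (100) covered by WT-EF, DAF and Δ22 for 4 genes, in percent, with 1 point for each of 3 replicate sets, a bar at the mean and SD as error. For SPP1 the means step from 68.3% with WT-EF through 53.1% with DAF to 24.0% with Δ22, whereas for ALPL the 3 means lie under 0.

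From lowest to highest level, *SPP1* and *RUNX2* both ran from iLuc through WT-EF, DAF and Δ22 to iEF. For *SPP1* each neighbouring pair in that order was called, with the losses given above. For *RUNX2* the pairs DAF and Δ22, and Δ22 and iEF, were not called apart. *SPARC* ran from iLuc through WT-EF, iEF and Δ22 to DAF, and the upper 3 were not called apart in the tests of Δ22 against iEF and of DAF against Δ22.

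The members did not share 1 pattern over the 15 libraries. With replicate effects removed, log2 CPM of *SPP1* and *RUNX2* had a Pearson correlation of 0.952, *SPARC* and *RUNX2* of 0.879, and *SPP1* and *SPARC* of 0.771. *ALPL* and *SPARC* had -0.792. These are descriptions over 15 libraries that fall into 5 conditions, and all pairs share those conditions. Among genes averaging at least 50 counts, the 3 with the pattern most like *SPP1* were *AQP1* (r = 0.986), *DGKI* (0.986) and *TRAM2-AS1* (0.983). For *RUNX2* they were *ITGB4* (0.989), *CRYBG1* (0.988) and *ARSJ* (0.988), and for *SPARC* they were *IL13RA1*, *TDO2* and *THBS2* (0.988 each). *ALPL* was most like *SLC6A9* (0.968), *NDUFA1* (0.961) and *SMIM11* (0.957). *TNFRSF11B* was most like *NEFM* (0.972), *RTN1* (0.970) and *SEC14L1* (0.964). *SP7* and *BGLAP*, with few counts, were most like *TAMM41* (0.940) and *KDM3B* (0.909).

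Other genes of bone formation were counted from lists of known pathway members. These lists hold inhibitors as well, such as *GREM1* and *MGP*, so counts of genes that fell give no direction for bone formation itself. Over all genes, 19.5% were called higher and 22.1% lower in iLuc, and 12.9% and 17.0% with WT-EF. Of 12 other osteogenic transcription factors, 2 rose and 7 fell in iLuc against iEF cells, with a median log2 fold change of -1.12. The homeobox factors *DLX5* and *DLX6*, which act in osteoblast differentiation, rose by 2.77 and 1.99 on the log2 scale. The factors that fell most were *MSX2* (-4.96), a homeobox factor of skull bone, and *FOSL2* (-4.53) and *FOSL1* (-4.27), AP-1 subunits of bone-forming cells. With WT-EF, 4 rose and 6 fell, among them *DLX5* (1.93) and *DLX6* (1.49), both higher. *MSX1* fell with endo-EF (-1.44), and it was called higher with DAF (0.80) and with WT-EF (0.45), where the call was lost in 4 alternatives, including those without WT-EF replicate 2 and without the replicate 1 or replicate 2 libraries.

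Of 14 other matrix and mineralization genes tested, 2 rose and 11 fell in iLuc, and 2 rose and 8 fell with WT-EF. *COL1A1*, a chain of type I collagen, the main fibre of bone, was at 4.71 CPM in iLuc, 108.6 CPM in iEF, 18.3 CPM with WT-EF, 74.4 CPM with DAF and 94.3 CPM with Δ22. Its log2 fold change was -4.56 in iLuc (adjusted p = 5.07e-08) and -2.53 with WT-EF (adjusted p = 1.21e-05). *MGP*, an inhibitor of calcification, fell by 6.32 in iLuc and by 4.06 with WT-EF on the log2 scale. *POSTN*, a matrix protein of the periosteum, fell by 5.58 in iLuc and was not called with WT-EF (-1.44, adjusted p = 0.0988). *ANKH*, which exports pyrophosphate, fell with endo-EF (-3.65), WT-EF (-2.45), DAF (-1.11) and Δ22 (-0.68). *PHOSPHO1*, a phosphatase that starts mineralization inside matrix vesicles, rose instead. It was at 23.7 CPM in iLuc, 2.96 CPM in iEF, 35.6 CPM with WT-EF, 31.7 CPM with DAF and 3.47 CPM with Δ22. Its log2 fold change against iEF was 3.05 in iLuc, 3.61 with WT-EF and 3.41 with DAF, all called in every alternative, and 0.23 with Δ22, which was not called. *ENPP1*, which makes pyrophosphate, rose by 1.28 in iLuc and by 1.02 with WT-EF. *ALPL* and *PHOSPHO1* were thus both higher in iLuc than in iEF, but WT-EF and DAF were above iEF for *PHOSPHO1* and not for *ALPL*.

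Bone morphogenetic proteins (BMPs) are secreted ligands that induce *RUNX2*. Of 17 genes of that pathway, 3 rose and 11 fell in iLuc, and 3 rose and 8 fell with WT-EF. The ligand *BMP4* fell by 5.80 in iLuc, by 2.66 with WT-EF and by 1.40 with DAF. The ligand *BMP2* fell by 4.16 in iLuc but was not called with WT-EF (-0.28, adjusted p = 0.750). *GREM1*, a secreted BMP antagonist, fell by 5.58 in iLuc and by 3.28 with WT-EF. *ID2*, a direct BMP target, rose by 1.70 in iLuc and by 0.64 with WT-EF, where the call was lost without iEF replicate 2, WT-EF replicate 2 or all replicate 2 libraries. Its relatives *ID1* and *ID3*, also direct BMP targets, went the other way. *ID1* fell by 1.20 in iLuc and by 0.66 with WT-EF, and *ID3* fell by 1.41 and 0.73. The WT-EF call of *ID1* was lost without iEF replicate 1 or WT-EF replicate 3, and the value of *ID3* with WT-EF was -0.45 without the replicate 3 libraries of all conditions and nearly as small without WT-EF replicate 3 alone. Both were named after their values were seen. The receptor *BMPR1A* rose by 0.46 in iLuc and by 0.48 with WT-EF.

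**Figure D4:**
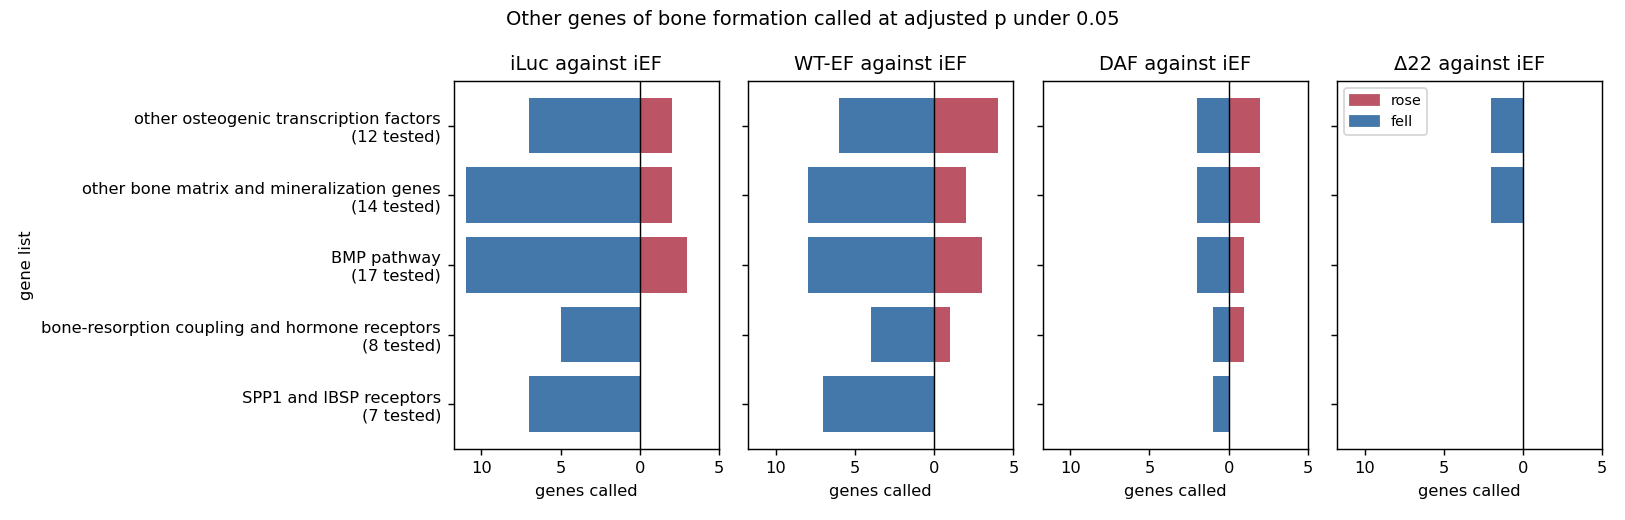
Number of genes in 5 lists of bone formation that were called at an adjusted p under 0.05 in iLuc, WT-EF, DAF and Δ22 against iEF, with genes that rose to the right and genes that fell to the left of 0. All 7 receptors of SPP1 and IBSP fell in iLuc and with WT-EF, and with Δ22 no list has more than 2 called genes.

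The integrins and *CD44* are the receptors to which *SPP1* and *IBSP* bind. All 7 fell in iLuc and all 7 fell with WT-EF, with median log2 fold changes of -2.27 and -1.59. *CD44* was at 13.2 CPM in iLuc, 1444 CPM in iEF and 259 CPM with WT-EF, so that the receptor fell alongside *SPP1* in iLuc and with WT-EF. It did not do so with the mutants, where *SPP1* was called lower and *CD44* was not. *CD44* was at 1179 CPM with DAF (log2 fold change -0.31, adjusted p = 0.672) and 1378 CPM with Δ22 (-0.09, adjusted p = 0.957). *ITGB3*, an integrin subunit prominent on osteoclasts, fell by 6.60 in iLuc and by 4.01 with WT-EF. *ITGB5* fell by 2.27 in iLuc, by 1.66 with WT-EF and by 0.65 with DAF. With Δ22 none of the 7 was called. Of 8 tested genes of resorption coupling and hormone response, 5 fell in iLuc, where *CSF1*, a growth factor of osteoclast precursors, fell by 4.99 and *SEMA3A*, an osteoprotective guidance factor, by 3.33. *VDR*, the vitamin D receptor, fell by 2.44. With WT-EF, 1 gene of that list rose and 4 fell. *TNFSF11* (RANKL), the ligand that *TNFRSF11B* traps, did not pass the filter, and its highest mean over conditions was 0.0206 CPM.

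Of the 58 genes tested in these 5 lists, iLuc called 7 higher (12.1%) and 41 lower (70.7%), beside 19.5% and 22.1% of all genes. WT-EF called 10 higher (17.2%) and 33 lower (56.9%), beside 12.9% and 17.0% of all genes. DAF called 6 higher (10.3%) and 8 lower (13.8%), beside 5.00% and 6.19% of all genes. Δ22 called 0 higher and 4 lower (6.90%), beside 0.472% and 0.830% of all genes. With Δ22 they included *TWIST1* (-1.19), *ANKH* and *OMD* (-1.96), a matrix proteoglycan. Each of these 3 calls was lost without the replicate 2 libraries of all conditions, and those of *ANKH* and *OMD* also without the replicate block (adjusted p = 0.0921 and 0.169). With DAF, 2 transcription factors rose and 2 fell, 2 matrix genes rose and 2 fell, 1 BMP gene rose and 2 fell, 1 receptor gene fell, and 1 coupling gene rose and 1 fell. The calls of *MSX1*, *PHOSPHO1*, *ANKH*, *BMP4* and *ITGB5* held in every alternative. Those of *DLX3* (2.25), *TWIST1* (-0.95), *SLC20A2* (0.41), *OMD* (-1.31), *GREM1* (-1.46), *BMPR2* (0.52), *CSF1* (-1.02) and *EPHB4* (0.28) were lost without the replicate 2 libraries of all conditions, and each of them also without the replicate 1 libraries. All but *DLX3* were lost without at least 1 single library as well, and without the replicate block those of *OMD* (0.202), *GREM1* (0.101) and *CSF1* (0.0960) were lost too.

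Markers of other cell types were read beside the members. Over all genes, 19.5% were called higher and 22.1% lower in iLuc, and 12.9% and 17.0% with WT-EF. The shares were 5.00% and 6.19% with DAF, and 0.472% and 0.830% with Δ22. Of 7 mesenchymal stromal markers, 0 rose and 5 fell in iLuc, and 0 rose and 5 fell with WT-EF. Their summed level was 763 to 921 CPM in iLuc, 5624 to 7411 CPM in iEF, 1187 to 2463 CPM with WT-EF, 5457 to 6363 CPM with Δ22 and 4235 to 4660 CPM with DAF libraries. These levels were lowest in iLuc, then with WT-EF and then with DAF, as for *SPP1* and *RUNX2*, whereas *SPARC* was highest with DAF. *NT5E* and *VIM* made up most of the sum (3352 and 2767 CPM in iEF), and not every marker followed its order. The part of these markers in the results was not tested. With DAF, 3 fell, of which *PDGFRA* (-2.10) held in every alternative while *NT5E* (-1.13) and *PDGFRB* (-1.11) were lost without the replicate 2 libraries. With Δ22, 2 fell (*PDGFRA*, -1.16, and *PDGFRB*, -1.34), and both were lost without the replicate 2 libraries.

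Of 9 Ewing sarcoma markers tested, 8 rose and 0 fell both in iLuc and with WT-EF, 5 rose with DAF and none was called with Δ22. Of the 5 calls with DAF, 3 held in every alternative, while *LIPI* was lost in 6 of 25 and *CAV1* in 1. *CD99*, also on this list, averaged 0.467 counts per library and did not pass the filter, for a reason that was not tested. Of 9 osteoclast and macrophage markers, 5 fell in iLuc, 3 fell with WT-EF and 1 rose with DAF. That gene was *CTSK* (1.57), a collagen-degrading protease, at 12.1 CPM with DAF. The summed level of this list was 5.81 to 8.60 CPM in iLuc, 8.25 to 10.9 in iEF, 7.11 to 8.76 with WT-EF, 6.89 to 11.5 with Δ22 and 10.7 to 29.1 with DAF libraries. Apart from *CTSK*, the highest mean of a condition was 2.36 CPM for *CD14* (DAF), 1.58 for *OSCAR* (Δ22) and 1.40 for *ACP5* (iEF). It was 1.30 CPM for *CSF1R* (iEF), 0.657 for *DCSTAMP* (Δ22), 0.634 for *PTPRC* (DAF), 0.131 for *CD68* (iLuc) and 0.0674 for *CALCR* (DAF).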

How the data were processed

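RNA-seq values of 15 A673 libraries were used. The authors aligned reads to hg19 with STAR (2.5.1b per the submitters' processing notes) and ran htseq-count (intersection-strict) on Ensembl genes. These deposited counts are whole numbers and carry no scaling. A second deposited table holds estimated counts for 27002 genes, decimal values left after their ComBat adjustment for replicate set. Only 5 of the 8 members are in that table, without *SPP1*, and it served an alternative, rounded. A deposited table of the authors' own comparisons (fold changes and p-values) was not used, and neither were 3 columns of other samples. Symbols were matched for 55538 identifiers.

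Counts were fitted in R 4.3.3 with edgeR 4.0.16 (TMM, genes averaging at least 1 count per library, quasi-likelihood test). All 15 libraries entered 1 model with condition and replicate number as a block, since the study adjusted each replicate set. Deviations of same-numbered libraries correlated with a median r of 0.185 over 30 pairs, 21 of them over 0.1, against -0.08 over 60 other pairs. Deviations were taken from the mean of each condition, which largely sets the second value from the first, so it is no separate comparison. P-values were adjusted by Benjamini-Hochberg over all genes tested, with a cutoff of 0.05. Intervals of log2 fold changes are 95% intervals from the standard error and the normal distribution. The edgeR test allows for the small number of libraries and these intervals do not, so they are somewhat too narrow. The test was checked on simulated data without replicate-set effects, with changes planted only in genes of higher counts than *SP7* and *BGLAP*. That check thus covers neither the block nor these 2 members. Between libraries of a condition the chi-square per gene was 12.9 to 83.2, so that every pair differed by more than sampling noise. Correlations and shares used log2 CPM with a prior count of 2, with replicate effects removed by limma 3.58.1 for the correlations. The floor was 3 counts per library.

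Besides all members and *FLI1*, named genes are the up to 3 list genes that rose most and up to 3 that fell most in iLuc among those called with at least 50 counts on average, list genes called with DAF or Δ22, and the 3 genes of most similar pattern. A list gene that this rule takes is counted but not reported here by name. The members and the 10 lists were chosen with earlier results of these data known. In all, 25 alternatives were run.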

Additional observations from a re-analysis of the deposited data

How the results depend on the processing

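The 5 calls in iLuc and the 3 in WT-EF against iEF were the most stable counts. With the replicate block left out, the number of members called fell from 1 to 0 in Δ22 and from 2 to 1 in DAF against iEF, from 4 to 2 in WT-EF against DAF and from 1 to 0 in DAF against Δ22, and the block changed no other count. On the ComBat-adjusted table, which lacks *SPP1*, it was 0 for Δ22, 1 for DAF and 2 for WT-EF against DAF. DESeq2's Wald test called 2 in WT-EF against DAF and 2 in DAF against Δ22. For DAF against Δ22, no filter on low counts called 2 and the 6 libraries alone called 5. The causes were not tested. When 1 library or 1 numbered set was left out, the count ran from 5 to 6 in iLuc, 3 to 4 in WT-EF, 0 to 1 in Δ22 and 1 to 2 in DAF against iEF, from 3 to 6 in WT-EF against iLuc, from 1 to 4 in WT-EF against DAF and from 0 to 2 in DAF against Δ22. Of the changes that were not called, some kept their sign, as *ALPL* did in DAF against iEF (-1.03 to -0.43 over 25 alternatives). Others crossed 0 in those fits. On the log2 scale, against iEF, *TNFRSF11B* in WT-EF ran from -0.72 to 0.047, and in Δ22 *ALPL* ran from -0.51 to 0.48, *BGLAP* from -0.85 to 1.35, *SP7* from -1.53 to 1.27 and *SPARC* from -0.043 to 0.42. *SP7* ran from -0.61 to 0.75 in WT-EF against iLuc. In WT-EF against DAF, *ALPL* ran from -0.13 to 0.46 and *TNFRSF11B* from -0.21 to 0.25. Depth limits *SP7*, *BGLAP*, *IBSP* and *TNFRSF11B*, which had 305 counts or fewer over all libraries.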

Other observations

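Genes of the lineages that share a mesenchymal origin with bone were also read. Over all genes, 19.5% were called higher and 22.1% lower in iLuc, and 12.9% and 17.0% with WT-EF. With DAF these shares were 5.00% and 6.19%. Of 8 chondrocyte markers, 1 rose and 4 fell in iLuc against iEF cells, and 0 rose and 5 fell with WT-EF. *SOX9*, the factor that directs cartilage formation, was at 14.0 CPM in iLuc, 82.4 CPM in iEF, 25.7 CPM with WT-EF, 66.4 CPM with DAF and 81.5 CPM with Δ22. Its log2 fold change was -2.58 in iLuc and -1.68 with WT-EF (adjusted p = 2.36e-09 and 2.90e-07 in edgeR's quasi-likelihood test), and both calls held in every alternative. *SOX5*, a partner of *SOX9*, fell by 2.16 in iLuc, by 1.23 with WT-EF and by 1.32 with DAF on the log2 scale. *SOX6* rose by 1.30 in iLuc. It was called higher with DAF (0.71) too, a call lost without iEF replicate 1, iEF replicate 3 or DAF replicate 3 and without the replicate 1 or replicate 2 libraries. With DAF 1 chondrocyte marker rose and 3 fell, and with Δ22 none was called.

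Of 6 adipocyte markers, 4 passed the filter. In iLuc 1 rose and 2 fell, with WT-EF 0 rose and 3 fell, and with DAF 1 rose. That gene was *LPL*, lipoprotein lipase, at 7.54 CPM in iEF and 15.9 CPM with DAF (log2 fold change 1.06, adjusted p = 0.0389 in edgeR's test). The call was lost without the replicate block (0.237), without any iEF library, without DAF replicate 2 or 3, and without any of the numbered sets. With Δ22 no adipocyte marker was called. The summed level of the list was 4.83 to 12.6 CPM in iEF and 6.82 to 24.3 CPM with DAF libraries.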
